A study of Mus musculus with 6 samples.

Results

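The regions described here are stretches of open chromatin that peak calling found in thymus of p53 AD/- mice and not in thymus of p53 -/- mice. The assay was ATAC-seq, which uses a transposase to cut DNA where chromatin is open and sequences the ends of the pieces. Each peak summit on chromosomes 1 to 19 was given a window reaching 250 bp to either side, and windows that overlapped, whatever their library, were joined, which gave 72291 regions. A region was kept when at least 2 of the 3 AD/- libraries had a summit in it, none of the 3 p53 -/- libraries did, and no p53 -/- summit lay within 2 kb. The rule kept 614 regions, 0.849% of all, which are called AD-only regions below. With the genotypes exchanged it kept 1097 regions, 1.52% of all, called null-only regions. A summit in all 3 libraries of a genotype was found in 55 AD-only regions (0.0761% of all regions) and in 192 null-only regions (0.266%). The presence of summits chose both sets, so these counts are a description and carry no test.

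Both groups were thymus of mice aged 4 weeks on a mixed background, 50% BALB/C and 50% C57BL6, with 3 libraries each. The AD/- mice carried an altered p53 allele, named AD in the labels and dimeric in the series text, over a null allele, and the p53 -/- (null) mice carried no functional allele. The alterations were in the germline, so every cell type of the thymus carried them. Thymus with wild-type p53 was not analysed here, so neither group is a normal control. Libraries are numbered in order of deposition. Nothing in the labels says that the libraries of a genotype came from different mice, so the spread between them may be technical.

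p53 is a transcription factor that binds DNA as a tetramer after DNA damage and other stress, and activates genes of cell cycle arrest, cell death and metabolism. Mice without p53 often develop lymphomas of the thymus. The thymus is filled mostly with developing T cells, whose open chromatin comprises promoters, which are open in many cell types and often rich in CG dinucleotides, and distal elements such as enhancers, which differ more between cell types and stages. A summit marks the point of highest signal within a peak. Its deposited score was read as a −log10 q-value, so a peak just past the threshold scores about 1.3 and a peak absent from a list may have fallen just short of it.

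Promoters under AD-only regions were few. The 250 bases before an annotated start site overlapped an AD-only region at 10 genes of the RefSeq promoter table, among 20078 promoters of 16452 genes. At Nlrp1a, Spata3 and Sema5a both AD/- summits fell within these bases. They are shown because the AD-only call rests on summits inside the promoter itself, and because they differ in CG content. They are read 5′ to 3′ on the gene's strand, from RefSeq on GRCm38.p6, with CG dinucleotides in capitals. The Nlrp1a promoter lies at chr11:71144705-71144954 (minus strand), that of Spata3 at chr1:86021695-86021944 (plus strand) and that of Sema5a at chr15:32244563-32244812 (plus strand).
Nlrp1a: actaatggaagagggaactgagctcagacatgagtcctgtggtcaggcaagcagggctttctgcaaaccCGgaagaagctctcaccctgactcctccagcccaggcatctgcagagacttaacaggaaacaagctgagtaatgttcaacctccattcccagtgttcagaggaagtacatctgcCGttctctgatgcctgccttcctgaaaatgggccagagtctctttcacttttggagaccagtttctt
Spata3: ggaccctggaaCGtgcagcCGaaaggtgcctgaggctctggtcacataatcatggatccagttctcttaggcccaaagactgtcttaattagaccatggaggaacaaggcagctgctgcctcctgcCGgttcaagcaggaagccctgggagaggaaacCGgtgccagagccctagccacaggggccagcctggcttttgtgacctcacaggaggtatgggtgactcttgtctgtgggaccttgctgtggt
Sema5a: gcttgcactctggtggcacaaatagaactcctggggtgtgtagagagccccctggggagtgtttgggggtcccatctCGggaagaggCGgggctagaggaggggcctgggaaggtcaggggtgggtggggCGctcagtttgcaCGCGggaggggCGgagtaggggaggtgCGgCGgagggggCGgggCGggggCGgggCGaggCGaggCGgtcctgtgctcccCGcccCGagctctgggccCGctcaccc

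Nlrp1a encodes an inflammasome sensor, and its promoter held 2 CG dinucleotides with a GC content of 50.4%. Its summits lay 149 bases before the start site in AD/- library 1 and 87 bases before it in library 2. Spata3, named for spermatogenesis, had 4 CG dinucleotides and a GC content of 57.2%, with summits 103 and 127 bases before the start. Sema5a, a semaphorin of axon guidance, had 17 CG dinucleotides and a GC content of 72%, with summits 3 and 26 bases before the start. The other genes were Ugt1a1, Phf11d, Kif21a, Mmp25, Wfdc10, Lrrc39 and Megf6. Over the 10 promoters the median was 5 CG dinucleotides (range 2 to 23) and a GC content of 53.8%. Over the 9668 promoters under regions open in all 6 libraries the median was 18 CG dinucleotides and a GC content of 61.6%, and over all promoters it was 10 and 56%. Over the 21 promoters under null-only regions it was 11 and 62%.

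Motifs were searched on both strands of the same 250 bases. The p53 half-site was in 0 of the 10 promoters, in 3 of the 21 under null-only regions and in 6.25% of all promoters. The ETS core GGAA was in 10 of 10 against 93.0% of all, the E-box CANNTG in 9 of 10 against 62.6%, the GC box GGGCGG in 4 of 10 against 43.4% and the RUNX core TGTGGT in 2 of 10 against 12.2%. The CCAAT box CCAAT was in 2 of 10 against 35.3%. The TATA box TATAAA and the AP-1 site TGANTCA were in 0 of 10, against 11.7% and 6.19% of all promoters. None of these motifs contains the letters of another, except that the GC box contains a CG dinucleotide. A match is a description of the letters and not a binding site.

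The 6 libraries held 43589 to 58996 summits on these chromosomes, and the shortest list was that of AD/- library 3. Read depth is unknown. Median scores ran from 24.6 in AD/- library 3 to 36.1 in 5 of the libraries and stood at 77.3 in null library 2. Of 40 thymocyte genes, 37 or 38 had a summit within 1 kb of a gene end in every library. Over all 20665 protein-coding genes the number was 11294 to 12023, and of 40 cell cycle genes it was 39 in each library. Promoters are open in many cell types, so these counts alone do not check the tissue label. At Trp53 itself each library had a summit 937 to 993 bp from a gene end, and no AD-only region was assigned to it. A summit does not read the p53 allele, so this does not check the genotype labels.

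The AD-only regions came unevenly from the AD/- libraries. AD/- library 1 had a summit in 520 of them, library 2 in 557 and library 3 in 206. Libraries 1 and 2 alone made up 408 regions, which is 66.4% of the set. Libraries 2 and 3 gave 94, libraries 1 and 3 gave 57, and all 3 gave 55. The null-only regions were spread more evenly, with 219, 291 and 395 for the pairs of null libraries and 192 for all 3. The library with the fewest summits was thus also the one least often found in the AD-only regions, and the part of list length in this was not tested.

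Whether regions chosen in this way return in libraries that had no part in the choice was measured by leaving out 1 library of each genotype. Regions were chosen with a summit in both remaining AD/- libraries, none in the 2 remaining null libraries and no null summit within 2 kb, and then looked up in the left-out libraries. There were 9 such choices, which share libraries, and each library was held out in 3 of them, with a different set of regions each time. On average a summit was found in AD/- library 1 at 42.1% of sets of 241 to 318 regions. It was found at 59.7% of 164 to 230 regions in library 2 and at 13.9% of 690 to 982 regions in library 3. The null libraries, each averaged over sets of 164 to 982 regions, had a summit at 33.2%, 39.2% and 50.6%. The ranges of the genotypes overlapped: AD/- library 3 was lowest and AD/- library 2 highest. The mean was 38.6% ± 23.1 (SD, n = 3) in AD/- and 41.0% ± 8.85 (SD, n = 3) in null libraries, a difference of -2.46 percentage points (exact two-sided permutation test over libraries, p = 1; the smallest p that 3 against 3 allows is 0.10). The test treats the library means as exchangeable although they rest on different region sets, and it leaves out the pairing within a choice. Within choices, the held-out AD/- library recovered more than the held-out null library in 5 of the 9. These were all 3 with AD/- library 2 held out, 2 with library 1 and 0 with library 3, the shortest list.

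The same look-up for regions chosen from null libraries gave 39.3%, 67.4% and 14.2% in the AD/- libraries and 40.6%, 47.8% and 56.4% in the null libraries. The difference was -7.99 points (exact two-sided permutation test, n = 3 per group, p = 0.7). Within these choices, the held-out null library recovered more than the held-out AD/- library in 6 of the 9, 2 for each null library. In both directions AD/- library 2 recovered the most regions and AD/- library 3 the fewest. With every list shortened to its 43589 best-scoring summits, regions chosen from AD/- libraries were found again at 49.7%, 40.9% and 38.5% in AD/- and at 39.6%, 41.5% and 46.7% in null libraries. The difference then turned to 0.418 points (exact two-sided permutation test, n = 3 per group, p = 1). Regions chosen from null libraries in these shortened lists were found again at 45.6% ± 10.8 (SD, n = 3) in AD/- and 55.8% ± 0.706 (SD, n = 3) in null libraries, a difference of -10.2 points (exact two-sided permutation test, p = 0.3). A lean of the chosen regions towards the AD/- genotype was thus not detectable over the held-out libraries, and the regions are named here by the rule alone.

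**Figure D1:**
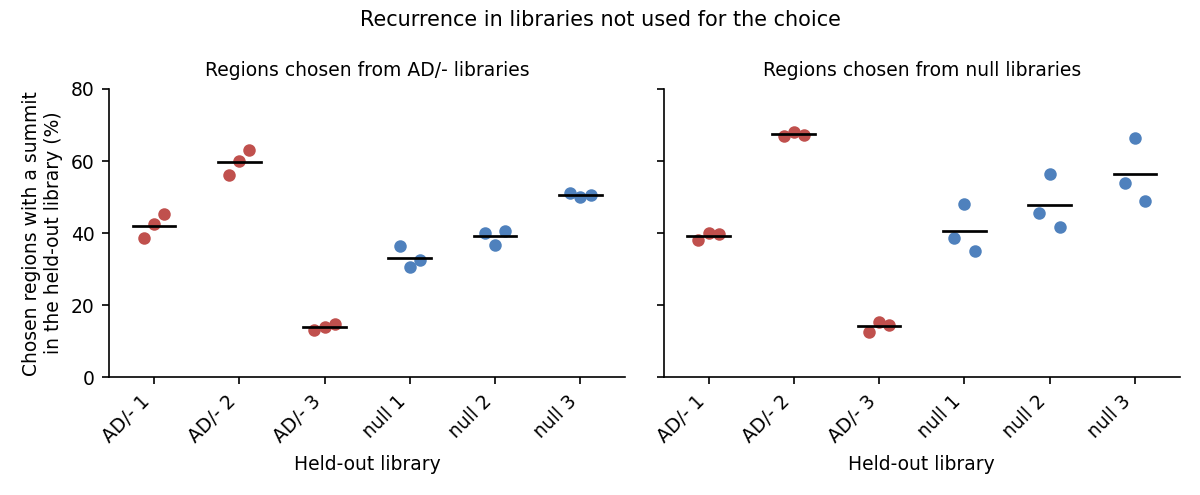
Share of chosen regions with a summit in a library not used for the choice (vertical axis, %), for regions chosen from AD/- libraries on the left and from null libraries on the right. Each point is 1 choice of libraries, each bar the mean of the 3 choices for that held-out library. The order of the AD/- libraries is the same in both panels, with library 2 highest and library 3 lowest.

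Nearly all AD-only summits were weak. Each score was turned into a percentile of its library, where higher is stronger. The median percentile of the AD-only summits was 7.33 in AD/- library 1 (median score 4.70), 10.6 in library 2 (6.05) and 6.93 in library 3 (3.81). Only 1, 1 and 2 of the summits lay above the median of their library. Taking for each region its lowest library, the median percentile was 4.94. It was 7.94 in null-only regions, 7.74 in the 7803 regions with summits in 2 or 3 libraries from both genotypes, and 55.0 in the 37606 regions found in all 6 libraries. AD-only regions thus sat with the other regions of few libraries, far below those found in every library.

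**Figure D2:**
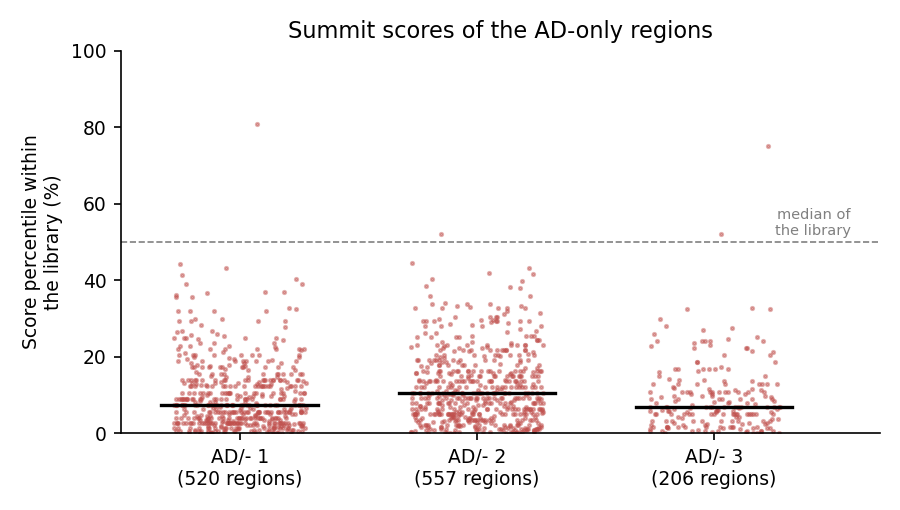
Score percentile of every AD-only summit within its own library (vertical axis, %), by AD/- library, with the number of regions that have a summit there. Bars are medians at 7.33, 10.6 and 6.93, and the dashed line is the median of all summits of a library. A point above 75 in libraries 1 and 3 is the region in Hivep2.

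The AD-only regions were mostly distal. Of the 614, 43 lay within 1 kb of an end of a protein-coding gene, 7.003% (95% Wilson interval 5.24% to 9.30%, which covers counting error only). The share was 5.38% in null-only regions, 9.96% in regions of 2 or 3 libraries from both genotypes, 29.0% in regions of all 6 libraries and 19.8% over all regions. Counting only annotated start sites, on the chromosomes where the reference gives them, 14 of 599 AD-only regions lay within 1 kb of one, 2.34%. That share was 2.45% in null-only regions, 5.68% in regions of 2 or 3 libraries from both genotypes and 15.4% over all regions. The median distance to a gene end was 17330 bp, against 18484 bp in null-only regions and 8328 bp in regions of all 6 libraries. The distal position was shared with the null-only regions, and the interval of the AD-only share at gene ends includes the null-only share. The share in regions of 2 or 3 libraries from both genotypes lay above that interval. Their start-site share also lay above the AD-only interval of 1.40% to 3.88%. The 2 kb rule did not apply to those regions. Without that rule the AD-only share at a gene end was 9.70%, near their 9.96%. The part of the rule in the start-site share was not tested.

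Inside protein-coding genes lay 360 of the AD-only regions, 58.6%, the same share as over all regions (58.6%). The host genes were long, with a median of 92.2 kb against 95.8 kb for null-only regions and 62.3 kb for regions of all 6 libraries. Outside genes and away from their ends lay 238 regions, 38.8%. A region open in all 6 libraries lay within 10 kb of 45.9% of the AD-only regions and of 47.6% of the null-only regions. These measures placed AD-only and null-only regions in the same kind of surroundings.

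The outermost summits of an AD-only region lay a median of 46 bp apart, against 28 bp in null-only regions. This distance can grow with the number of libraries. It was 43 bp in the 559 AD-only regions of 2 libraries and 107 bp in the 55 of 3 libraries. The 3 AD/- summits in regions of all 6 libraries lay a median of 33 bp apart. Summits lay within 50 bp in 27.3% of the AD-only regions of 3 libraries and in 69.3% of the regions of all 6. Position within a region was not used by the rule beyond the overlap of windows. Among the members with exactly 2 libraries, the 44 whose lower percentile was at least 20 had summits a median of 6 bp apart, and 22 of them (50%) agreed within 5 bp. Among the other 515 the median was 46 bp and 11.7% agreed within 5 bp. The same split gave 15 bp and 37.3% in 134 null-only regions, and 12.5 bp and 33.4% in 494 regions shared by 1 library of each genotype. The split at percentile 20 was chosen after the values were seen.

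Members found in all 3 AD/- libraries were ranked by their lowest percentile. Among those within 50 kb of a gene with a proper symbol (not a provisional Gm or Rik name), the highest was inside Tgfbrap1, whose product binds TGF-β receptors, at chr1:43065803-43066341, with percentiles of 13.9, 16.3 and 12.9 in AD/- libraries 1, 2 and 3. The next, at chr2:153090484-153090990, lay 8749 bp from Ccm2l, a relative of a vascular scaffold protein, with percentiles of 12.2, 16.3 and 20.6 and summits within 6 bp of each other. Every summit of both regions ranked at percentile 20.6 or lower in its library. Members outside that limit ranked higher, with a lowest percentile of 23.5 at C130026I21Rik, 23.1 at 55527 bp from Mctp2 and 18.8 at 59204 bp from Csl.

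At Plb1, a phospholipase gene, the percentiles were 29.2, 29.3 and 10.8. The region inside Rptor, whose product is the raptor subunit of the growth-controlling kinase complex mTORC1, at chr11:119821135-119821668, had 17.6, 10.1 and 11.7. Another region inside Rptor had percentiles of 14.8 and 13.5 in AD/- libraries 1 and 2. Ssbp2, a gene of a single-stranded DNA binding protein, held a region at 25.3, 28.3 and 8.22. The phospholipid flippase genes Atp10a and Atp8a1 had values of 8.97, 20.4 and 10.8 for Atp10a and of 23.5, 16.3 and 8.85 for Atp8a1. Map3k13, a kinase upstream of JNK, held a region at 8.97, 28.02 and 6.93. Others named by the same ranking were in or near Zfp982, Pfkp and Nrbf2, with a lowest percentile between 6.33 and 6.55. Nrbf2 encodes a subunit of the autophagy lipid kinase complex.

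Members with exactly 2 AD/- libraries reached higher scores. The region at Hivep2, which encodes a zinc finger protein that acts in thymocyte selection in mice, stood apart from all others, at chr10:13964699-13965250 inside the gene and 1129 bp from its start site. Its percentile was 80.9 in AD/- library 1 (score 156) and 75.1 in library 3 (score 81.2), and library 2 had no summit there. All 6 libraries had a summit 2634 to 2664 bp from its centre, at percentiles of 84.6 to 89.5. A strong summit was thus called in 2 AD/- libraries beside a stronger neighbour that every library shared.

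Next to Hivep2 among members within 50 kb of a named gene were percentiles of 39.1 and 43.3 near Zfp946, 43.3 and 38.5 near Fam227a, and 36.1 and 44.5 in Dhcr7, the last enzyme of cholesterol synthesis, each in AD/- libraries 1 and 2. Spred2, an inhibitor of Ras to ERK signalling, had 36.8 and 35.9, and Snai1, a repressor known from epithelial to mesenchymal transition, had 29.8 and 40.4. Itpr1, a calcium channel of the endoplasmic reticulum that opens after T cell receptor signalling, had 36.5 and 26.3 with summits 1 bp apart. The remaining members of this ranking, at Nlrp1a, Trpm1, Ate1, Tns1 and Ube2d2a, had a lowest percentile between 25.8 and 29.2. The region in Trpm1, a cation channel gene, overlapped the hairpin of the microRNA Mir6416. All but Hivep2 among these 12 were pairs of AD/- libraries 1 and 2.

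At gene ends the highest members were again Nlrp1a, with percentiles of 29.2 and 32.7 in AD/- libraries 1 and 2, followed by Tmem249 (32.7 and 22.6) and Ap5b1, a subunit of an adaptor complex of late endosomes (21.02 and 34.2). Blk, a Src-family kinase of B cells, had 28.3 and 19.8 with both summits at the same base. Sema5a had 22.1 and 19.1, and no null summit lay within 594643 bp of it. Pgap3, Wfdc10, 4930544G11Rik, Sult4a1 and Mynn completed the 10, with a lowest percentile between 12.01 and 17.8. In these 10 members, 9 were pairs of AD/- libraries 1 and 2.

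Regions were assigned to protein-coding genes when they lay inside the gene or within 50 kb of an end. Of 64942 assigned regions, 531 were AD-only (0.818%) and 967 null-only (1.49%), and these shares are what the lists below are read against. The AD-only regions were assigned to 524 genes, of which 486 had 1 such region, 34 had 2, 3 had 3 and 1 had 4. Null-only regions were assigned to 939 genes, and 62 genes had both kinds. Of the 502 different genes on 15 lists, 31 had an AD-only region and 40 a null-only region.

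Genes of T cell development held 15 AD-only regions among their 1262 regions, 1.19% (95% Wilson interval 0.722% to 1.95%), at 12 of 63 genes. The same genes held 15 null-only regions, also 1.19%, at 13 genes, and 4 genes had both. These were Fyn, Lcp2 and Bach2, with 1 null-only region each, and Tcf12, with 2. Foxp1, a factor that keeps naive T cells quiescent, had 4 AD-only regions and 0 null-only regions among 86 regions, 38 of which were open in all 6 libraries. Its 4 regions lay inside the gene, 24448 to 112590 bp from a gene end, with a lowest percentile of 1.38 to 9.75. Foxp1 spans 597 kb, and it had the most AD-only regions of all genes.

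Foxo1, a factor that drives the interleukin 7 receptor gene and thymocyte exit, was the only gene of this list with a summit in all 3 AD/- libraries, at percentiles of 11.6, 22.4 and 2.24. A summit shared by all 6 libraries lay 3794 to 3827 bp from the centre of that region, at percentiles of 43.0 to 62.8. Fyn, a kinase of T cell receptor signalling, had percentiles of 12.01 and 12.2 in AD/- libraries 2 and 3. Ikzf2, which encodes Helios, had 17.6 and 11.4 in libraries 1 and 3, and Lcp2, which encodes the adaptor SLP-76, had 14.8 and 11.2 in libraries 1 and 2. Runx3, a factor of the CD8 lineage, had 22.2 and 9.53 in libraries 2 and 3, as did the Notch target Hes1 with 19.1 and 6.93. The E protein gene Tcf12 and Bach2, Tox, Runx1 and the chemokine receptor gene Ccr7 had a lowest percentile of 0.289 to 6.10. All of these T cell genes had regions open in every library as well, 6 to 38 per gene among the 12.

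Target genes of p53 held 0 AD-only regions among 234 regions of 47 genes, which allows a share of up to 1.28% and so includes the 0.818% of all assigned regions. The same genes held 4 null-only regions (1.71%, Wilson interval 0.667% to 4.31%), at Apaf1, Perp, Polk and Ptp4a3. That interval includes the null-only share of 1.49% over all assigned regions. Genes of thymic lymphoma held 1 AD-only region among 439, the one in Runx1, and 7 null-only regions (1.59%). Apoptosis and DNA damage genes held 1 among 191 regions (0.524%), in the survival gene Bcl2. Its percentiles were 7.33 and 6.33 in AD/- libraries 1 and 2. Cell cycle genes held 1 among 198 (0.505%), in Rb1, with percentiles of 5.61 and 0.599 in libraries 1 and 3. The intervals of the AD-only share of all 4 lists include the AD-only share over all assigned regions.

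Metabolic genes were looked at because the series title speaks of an altered metabolic programme. The list of PPAR receptors and lipid metabolism held 6 AD-only regions among 343, 1.75% (95% Wilson interval 0.804% to 3.76%). It held 5 null-only regions (1.46%), at Acadl, Cpt1a, Ppara, Pparg and Ppargc1b. Rxra, the partner receptor of the PPARs, had 2 AD-only regions, with percentiles of 12.2 and 18.7 at the higher one. The AD-only region at Ppara had 22.3 and 13.6 in AD/- libraries 2 and 3, and that at Ppard had 19.4 and 12.7 in libraries 1 and 2. The region near Fabp5, a fatty acid binding protein gene, had 21.2 and 32.8 in libraries 2 and 3 with both summits at the same base. All 6 libraries had a summit 2937 to 2943 bp away from it at percentiles of 87.9 to 91.4. Scd2, a fatty acid desaturase gene, had 0.299 and 3.87.

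Glycolysis, citric acid cycle and oxidative phosphorylation genes held 3 AD-only regions among 282 (1.06%) and 2 null-only regions. Pfkp, a phosphofructokinase of glycolysis, had a region at chr13:6624068-6624692 with percentiles of 6.42, 7.29 and 6.47 in AD/- libraries 1, 2 and 3. A summit 3167 to 3207 bp from its centre was called in AD/- library 3 and in null libraries 1 and 2. Hk3, a hexokinase gene, had 4.47 and 17.1 and Suclg2, a citric acid cycle gene, had 1.38 and 2.26, each in AD/- libraries 1 and 2. Cytokine, NF-κB and interferon genes held 3 AD-only regions among 285 (1.05%), at Irf2, Stat4 and Traf2, and 3 null-only regions (1.05%).

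Markers of other cell types that a thymus can hold gave small counts. Thymic epithelial markers had 1 AD-only region of 51 (Ly75) and B cell markers 1 of 56 (Blk). Myeloid and dendritic markers had 1 of 68 (Adgre1), and mature T and NK cell markers 1 of 118 (Gzma). Endothelial and mesenchymal markers had 2 of 95 (Sox18 and Erg). Erythroid and adipocyte markers had 0 of 15 and 0 of 26 regions, which allows shares of up to 20% and 11.5%. The interval or limit of each of these lists includes the 0.818% of all assigned regions. Of the 22 endothelial and mesenchymal genes, 9, 9 and 7 showed a gene-end summit in AD/- libraries 1, 2 and 3, and 7, 8 and 6 in the null libraries. Thymic epithelial genes went the other way, with 10, 10 and 7 in AD/- and 11, 11 and 10 in null libraries. Myeloid and dendritic genes had 8, 8 and 6 against 8 in each null library, and B cell genes 7, 7 and 6 against 6, 8 and 6. Mature T and NK cell genes had 12, 12 and 11 in both genotypes. Erythroid genes had 4 in every library, and adipocyte genes 4, 4 and 3 against 4 in each null library. The part of cell composition in the AD-only set was not tested.

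**Figure D3:**
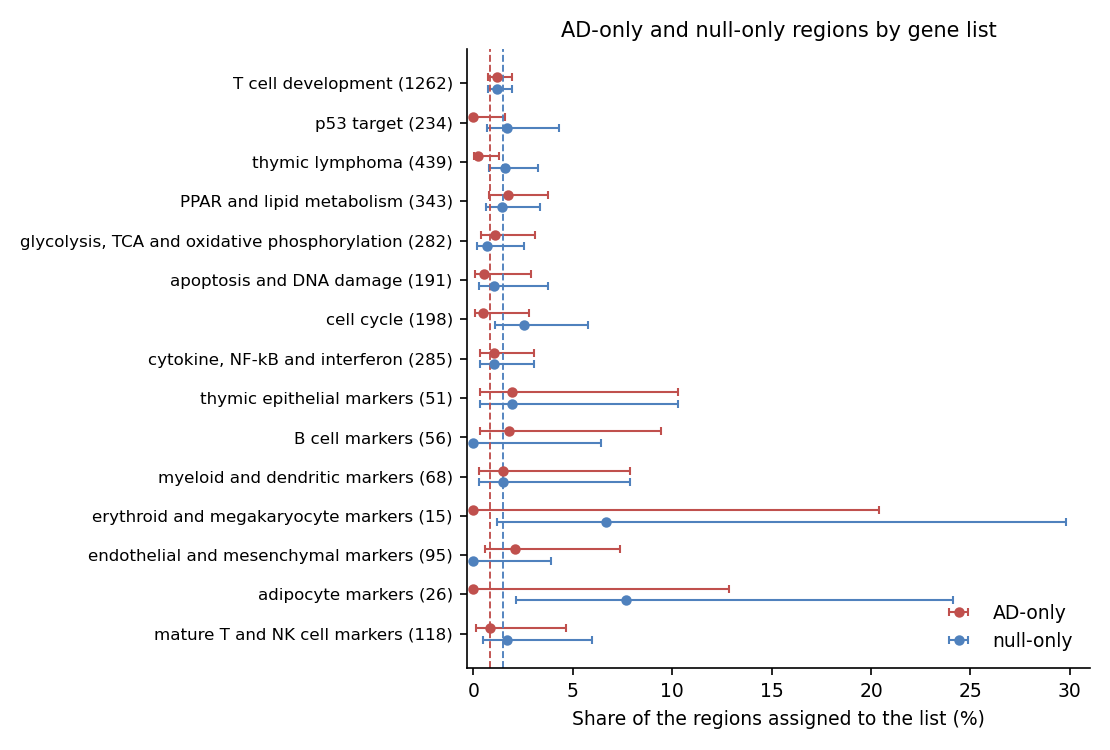
Share of the regions assigned to each gene list that were AD-only (red) or null-only (blue), with 95% Wilson intervals (horizontal axis, %). Numbers in brackets are regions per list, and dashed lines are the shares over all assigned regions, 0.818% and 1.49%. The red interval of every list reaches across the red dashed line.

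The free distance of 2 kb shaped the set. A null summit lay 2 to 5 kb from 190 of the AD-only regions, 5 to 10 kb from 179 and beyond 10 kb from 245, with a median of 7888.5 bp. The rule had left out 469 of the 1083 regions (1.5% of all) with at least 2 AD/- summits and no null summit, because a null summit lay within 2 kb. The members nearest to that limit were in Rb1 at 2007 bp, in Ehbp1l1 near Kcnk7 at 2031 bp and in Tcf12 at 2034 bp. The regions left out nearest to it lay 304768 bp from Alkbh8 (null summit at 1983 bp), in Prkce (1987 bp) and in Cnot1 (1988 bp).

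**Figure D4:**
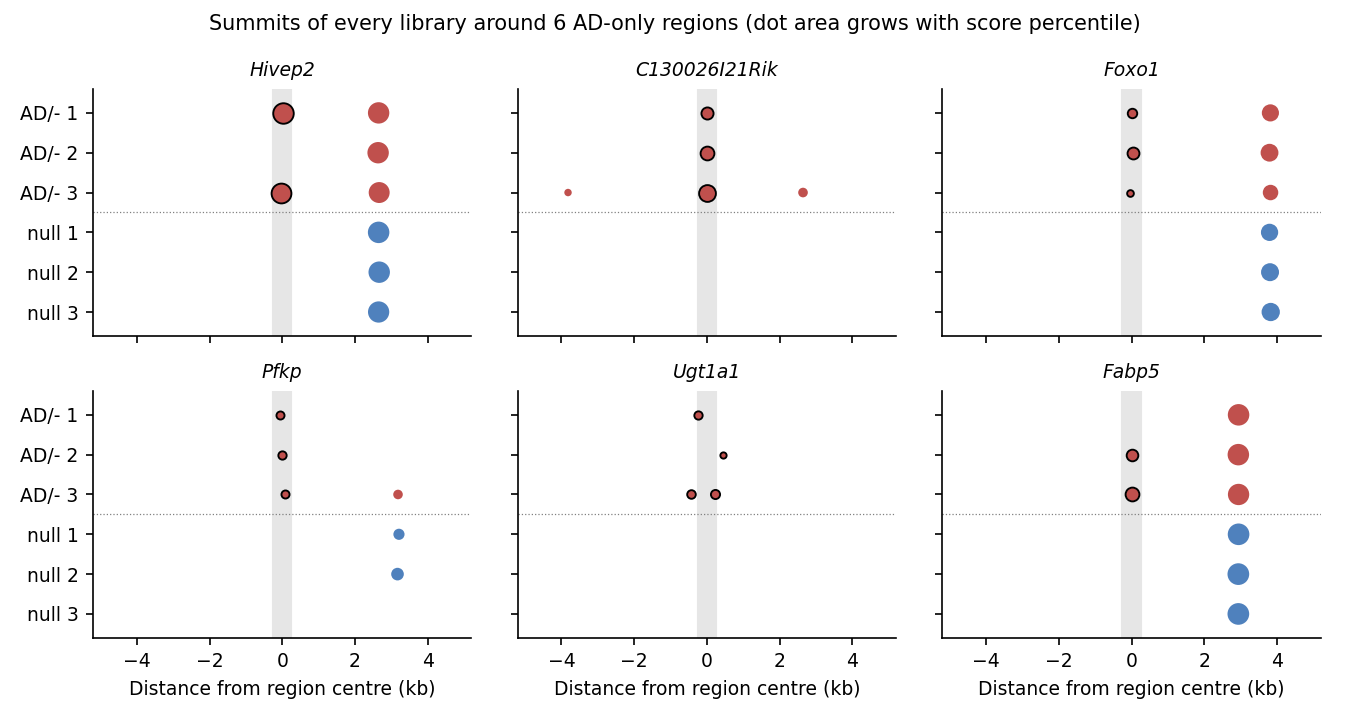
Summits of each library within 5 kb of the centre of 6 AD-only regions (horizontal axis, kb), in 1 row per library, where the area of a dot grows with the score percentile. Black outlines mark the summits of the region itself and the grey band its position. At Hivep2, Foxo1 and Fabp5 every library shares a neighbouring summit, and at C130026I21Rik and Ugt1a1 no null summit lies in view.

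A null summit was more than 100 kb away from 24 AD-only regions, 8 of which had summits in all 3 AD/- libraries. Of these 24, 5 lay in a segment of chromosome 4, chr4:146455098-147526940, which holds 8 protein-coding genes, 7 of them zinc finger (Zfp) genes. The segment was defined after the members far from null summits had been seen, as 3 or more of them less than 1 Mb apart, and it was the only such segment. None was found among the 37 null-only regions more than 100 kb from an AD/- summit. It held 26 regions, of which 8 were AD-only, 0 null-only and 1 open in all 6 libraries. The remaining regions had summits in AD/- libraries alone, so that 25 of the 26 came from AD/- libraries alone. The share of such regions over the genome is not given here, so this count is not read against a base rate.

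Counted by library, the segment had 8, 13 and 20 summits in AD/- libraries 1, 2 and 3, and 1 in each null library. Because the segment was chosen for members far from null summits, few null summits were to be found there and the contrast carries no test. AD/- library 3, with the shortest list of all, had the most summits here. Zfp992 held the region at chr4:146455098-146455954, with percentiles of 7.33, 6.33 and 27.0, and another at chr4:146457758-146458305, with 8.97, 3.51 and 25.2. Near Zfp982 the region at chr4:147431881-147432885 had 6.55, 20.4 and 24.5. In each of these AD/- library 3 had the highest rank. Genes of one family can be alike in sequence, which can make the placement of reads uncertain. How alike these genes are was not measured, and the sources used here do not give how reads with several matches were treated. The part of read placement in these summits was not tested. The mice were of mixed background, and which strain's sequence each library carried here was not tested.

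**Figure D5:**
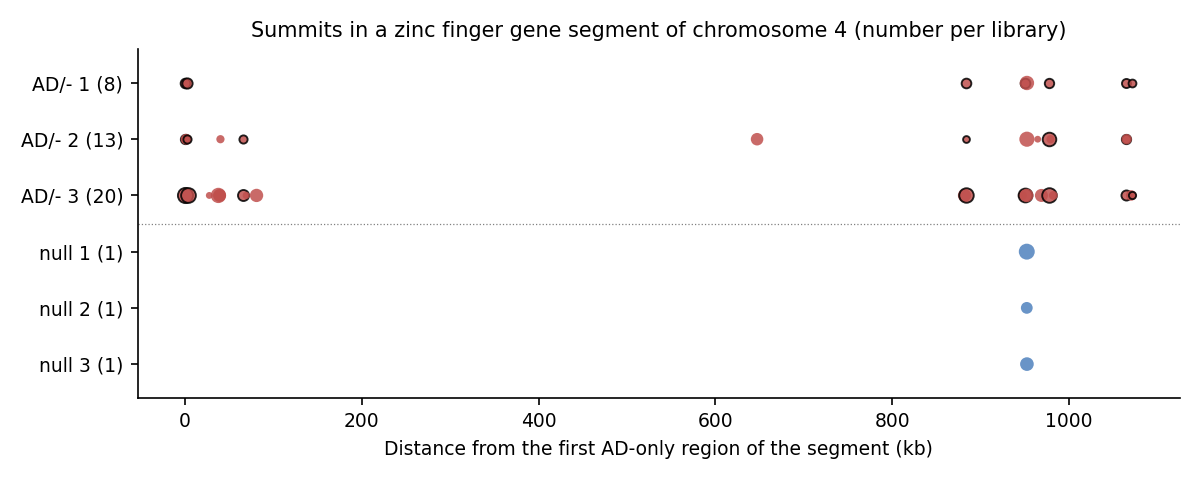
Summits of each library along the zinc finger gene segment of chromosome 4 (horizontal axis, kb from its first AD-only region), in 1 row per library with the number of summits in brackets. The area of a dot grows with the score percentile and black outlines mark summits of AD-only regions. The AD/- rows hold 8, 13 and 20 summits and the null rows 1 each.

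Other isolated members were single loci. Near Gm32719 on chromosome 12 a pair of members lay side by side, with percentiles of 13.0, 9.87 and 29.95 at chr12:20231323-20231897 and of 12.2, 17.1 and 27.9 at chr12:20232657-20233555. Within 50 kb of them the AD/- libraries had 2, 2 and 3 summits and the null libraries 0 each. The region near C130026I21Rik, at chr1:85277601-85278108, had percentiles of 23.5, 32.7 and 52.0, with summits at most 7 bp apart and no null summit within 313752 bp. The member farthest from a null summit, 2774345 bp, lay 136237 bp from Lrfn5 at chr12:61994165-61994696, with percentiles of 44.2 and 52.0 in AD/- libraries 1 and 2. The Nlrp1a region had no null summit within 110891 bp and lies 1553 kb from Trp53 on the same chromosome. Within 5 Mb of Trp53, 4 of 431 regions were AD-only (0.928%) and 15 were null-only (3.48%).

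Across the genome the AD-only share ran from 0.422% of regions on chromosome 8 to 1.09% on chromosome 1. Of 3504 windows of 500 kb with a region, 460 held 1 AD-only region, 59 held 2 and 12 held 3. The windows with 3 included the Zfp978 to Zfp988 part of the chromosome 4 segment, the Ugt1a cluster on chromosome 1, Edem3, the Fyn locus with Traf3ip2 and Rev3l, and Foxp1. The Ugt1a genes encode enzymes of glucuronidation and share their last exons, and the member at Ugt1a1, at chr1:88211669-88213063, had percentiles of 7.33, 0.986 and 10.3.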

How the data were processed

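The data were peak summits of 6 ATAC-seq libraries, 3 p53 AD/- and 3 p53 -/-, grouped by the genotype label. The authors deposited 1 summit list per library, so peaks were called per sample, with a −log10 q-value as score. Lowest scores were 1.30 to 1.39, where a q-value of 0.05 gives 1.3. The submitters' processing notes name MACS2 2.1.2, Picard 2.9.0, Bowtie2 2.3.4.2, Trim Galore 0.4.5 and the build GRCm38. Their settings, the handling of duplicates, multiply placed reads and transposase offset are not stated in the sources used here. Each could change which weak peaks were called. Depth is unknown.

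Regions, ranks and shares were computed with Python 3.11.15, pandas 2.3.3, NumPy 2.4.6 and SciPy 1.17.1, and the region rule was tested on simulated data. Intervals are 95% Wilson intervals and cover counting error only. A share of 0 is given the limit of 3 regions. Libraries were compared with an exact two-sided permutation test. Genes (20665 protein-coding) and promoters came from RefSeq on GRCm38.p6. Start sites were known for 79.6% of the genes and not used on chromosome 18, so gene ends stayed the main measure beside them. Of 543 list entries 526 matched by symbol and 1 by synonym, and 16 did not match. No genome was used here, so the planned sequence content of the regions was not computed.

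The members and lists were chosen with earlier results of these data known. Named were the 12 highest members of 3 and of 2 libraries inside or within 50 kb of a gene with a proper symbol, ranked by their lowest percentile, 1 per gene, the 10 highest at gene ends, list members, genes and windows with most members, the members next to the 2 kb limit and, beyond the rule, isolated loci, members past the 50 kb limit, the printed promoters and the loci drawn. A region that this rule selects is not reported here. Alternatives were the extension, a score minimum, lists of equal length, the number of libraries, the free distance, the gene distances and leaving out each library.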

Additional observations from a re-analysis of the deposited data

How the results depend on the processing

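The count of AD-only regions followed the settings. It was 321 with scores of at least 5 (212 of the 614, 34.5%, were found again), 55 with all 3 libraries, 1083 with no free distance and 245 with 10 kb. Null-only counts were 643 with lists of equal length, 192 with all 3 libraries, 1709 with no free distance, 729 with 5 kb and 399 with 10 kb. With lists of equal length 517 AD-only regions were found, among them 54 of the 614 (8.79%). Leaving out 1 library gave 112 to 1242 AD-only regions and 412 to 3061 null-only regions: AD-only counts were 149, 112 and 462 without AD/- library 1, 2 or 3, and 911, 1010 and 1242 without null library 1, 2 or 3. Null-only counts were 1749, 3061 and 1270, and 587, 484 and 412. Among the settings tried, AD-only regions outnumbered null-only ones only when a null library was left out. Leaving out a null library loosens the AD-only rule and tightens the null-only rule.

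The median lowest percentile was 12.9 with scores of at least 5 and 14.2 with lists of equal length. The share inside genes was 54.5% with all 3 libraries and 53.6% to 61.5% without 1 library. The share at a gene end was 9.70% with no free distance, and 4.72% and 11.7% with windows of 500 and 2000 bp. The difference between held-out libraries reversed to 0.418 points with lists of equal length and was -13.5 to -0.917 points under the other settings tried, with exact permutation p of 0.6 to 1. A score minimum and shortened lists take out the lowest-scoring summits, so they act on the median lowest percentile by design. Apart from such effects of the settings themselves, the cause of these moves was not tested. No paired analysis was possible because the labels give no replicate numbers. With scores this low, absence from a list is not absence of open chromatin, since a peak may have missed the threshold.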

Other observations

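Over all assigned regions 0.818% were AD-only, and long genes with many regions have more places for one. Genes outside the lists that had several AD-only regions, named after their values were seen, included the calcium channel genes Itpr1 and Itpr2. Itpr1 spans 338 kb and had 3 AD-only and 1 null-only region among 39. Itpr2 spans 394 kb and had 2 AD-only regions among 56. Both channels release calcium from the endoplasmic reticulum. Sfi1, a centrosome gene, had 3 among 46 regions. Slc7a11, the cystine transporter gene, Gpd2, the mitochondrial glycerol phosphate dehydrogenase gene, and Me1, the cytosolic malic enzyme gene, had 2 each. They had 20 regions at Slc7a11, 9 at Gpd2 and 8 at Me1. Ifi202b, an interferon-inducible gene of a multigene family, had 2 among 4 regions, and no region of it was open in all 6 libraries.

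On the X chromosome, which the rule left out, 14 of 1411 regions were AD-only and 27 null-only. On the chromosomes that the rule covered, 614 of 72291 regions were AD-only (0.849%) and 1097 null-only (1.52%). Null-only regions were thus the more frequent kind there as well, and a difference of the X chromosome from the others was not tested.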
